A study of Mus musculus with 6 samples.

Results

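The genes described here encode replication-dependent histone H2A in the mouse line MLO-Y4, which resembles osteocytes, the bone cells that live inside mineralised matrix. They were taken as every gene of the deposited table whose symbol is H2ac followed by digits, which gave 6 of 2065 listed genes: H2ac18 and H2ac19 on chromosome 3, and H2ac8, H2ac22, H2ac23 and H2ac24 on chromosome 13. RefSeq names 17 protein-coding genes of this form, so the other 11 lie outside the table and were not analysed here. RNA was sequenced from 3 libraries labelled hypoxia with 2% O2 (replicates 1, 2 and 4) and from 3 labelled normoxia with 20% O2 (replicates 2, 3 and 4). The titles give 24 h for every library, while the free-text descriptions give 24, 25 or 26 h. All 6 libraries share the line, the genotype given as WT, the medium with fetal bovine serum and an extraction with DNase. MLO-Y4 is a single clonal line that was immortalised with a viral T antigen driven by the osteocalcin promoter, and it stands for osteocytes only as far as such a dividing line can. Whether replicates came from separate cultures is not stated in the labels, and p-values therefore measure spread between these libraries that may be technical.

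Histone H2A pairs with H2B, and such pairs join H3 and H4 to form the nucleosome, around which DNA is wrapped. Replication-dependent histone genes lie in clusters, and cells transcribe them mainly in S phase, when new DNA needs new nucleosomes. Their mRNAs are unusual in that most end in a conserved stem-loop instead of a poly(A) tail, and the stem-loop binding protein Slbp acts on it in processing, translation and decay. The libraries were made with a messenger RNA kit that selects poly(A) tails. How much of the tail-less histone mRNA was captured, and whether that differed between libraries, was not tested.

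The stem-loop is shown first because it sets these mRNAs apart from most others in a poly(A) library. A run of 16 bases with a 6-base stem and a 4-base loop, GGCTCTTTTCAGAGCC, was the single run of that form in the H2A transcripts of GENCODE vM21. On the sense strand it was found in 5 of the 6 and in 30 of 58797 protein-coding transcripts (0.051%). Those 30 came from 28 genes, of which 27 carry histone names. H2ac22 has no match, but its annotated transcript of 393 bases stops at the end of the coding sequence. The stem-loop is in capitals below, 5′ to 3′, with its flanks in lower case, and the windows of H2ac18 and H2ac19 are the same.
H2ac19: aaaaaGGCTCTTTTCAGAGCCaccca
H2ac23: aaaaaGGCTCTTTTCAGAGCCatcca
H2ac8: acaaaGGCTCTTTTCAGAGCCattca
The H2ac8 transcript runs on for 151 bases past the stem-loop, against 3 to 35 bases in the other 4. It holds the poly(A) signal AATAAA, in capitals in the next line, 123 bases after the stem-loop and 22 bases before its end.
H2ac8: tctccAATAAAtgggt
AATAAA lies in the last 40 bases of 1 of the 6 H2A transcripts and of 39.3% of protein-coding transcripts.

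Promoter windows, from 250 bases before to 50 after each annotated start, were found for all 6 genes in RefSeq (build GRCm38.p6, older than the build GRCm39 of the files). They are shown because these genes moved together and because paired copies share them. CCAAT (searched on both strands, so also as ATTGG) was in the windows of 6 of 6 genes and in 37.4% of 32851 windows of all genes. TATAA (both strands, so also TTATA) was in 5 of 6 and in 24.9%, and the octamer ATTTGCAT (both strands, so also ATGCAAAT) was in 1 of 6 and in 1.74%. Matches to these 3 motifs, which do not overlap here, are in capitals. The windows are H2ac22 at chr13:21787199-21787498 on the minus strand, H2ac8 at chr13:23571171-23571470 on the minus strand, H2ac24 at chr13:21833426-21833725 on the minus strand, and H2ac18 at chr3:96245247-96245546 on the plus strand.
H2ac22: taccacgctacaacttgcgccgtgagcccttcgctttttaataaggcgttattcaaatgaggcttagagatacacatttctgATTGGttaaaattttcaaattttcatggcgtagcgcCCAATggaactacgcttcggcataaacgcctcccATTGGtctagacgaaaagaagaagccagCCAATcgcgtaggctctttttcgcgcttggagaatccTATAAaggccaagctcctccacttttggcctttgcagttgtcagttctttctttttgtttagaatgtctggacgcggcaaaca
H2ac8: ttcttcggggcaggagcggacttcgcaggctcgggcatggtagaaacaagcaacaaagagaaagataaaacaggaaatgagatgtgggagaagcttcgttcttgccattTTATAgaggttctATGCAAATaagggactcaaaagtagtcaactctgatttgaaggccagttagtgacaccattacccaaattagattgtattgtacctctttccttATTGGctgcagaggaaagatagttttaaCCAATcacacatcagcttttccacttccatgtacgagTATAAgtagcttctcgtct
H2ac24: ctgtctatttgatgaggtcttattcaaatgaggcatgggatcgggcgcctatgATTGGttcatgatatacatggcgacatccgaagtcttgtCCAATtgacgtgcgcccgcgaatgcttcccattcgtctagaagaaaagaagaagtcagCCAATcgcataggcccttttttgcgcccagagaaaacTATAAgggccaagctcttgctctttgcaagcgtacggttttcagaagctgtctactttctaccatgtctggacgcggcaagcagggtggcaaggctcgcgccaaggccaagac
H2ac18: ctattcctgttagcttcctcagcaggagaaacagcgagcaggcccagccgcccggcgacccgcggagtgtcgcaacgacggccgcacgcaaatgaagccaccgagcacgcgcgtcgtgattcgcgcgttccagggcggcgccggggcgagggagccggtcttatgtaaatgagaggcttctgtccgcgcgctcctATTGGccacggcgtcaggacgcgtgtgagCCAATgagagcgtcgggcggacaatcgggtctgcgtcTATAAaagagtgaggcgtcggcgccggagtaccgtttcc
The windows of H2ac24 and H2ac23 share an unbroken run of 200 bases, and those of H2ac18 and H2ac19 share one of 219 bases. Among the other 13 pairs the longest shared run was 20 bases. H2ac22 has 4 CCAAT matches, H2ac23 and H2ac24 have 3 each, and the remaining genes have 2 each. Relative to the annotated start, TATAA began at -33 in H2ac22 and -63 in H2ac24, but at 11 in H2ac18 and 37 in H2ac23. In H2ac8 it began at 31 and, on the opposite strand, at -141. Whether these matches act as promoter elements was not tested. H2ac19 has no TATAA in its window, whose start site is annotated at a different point of the shared run than that of H2ac18.

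The H2A transcripts are so alike that reads can be split between them. Of the 50-base stretches of each annotated transcript, 100% of those of H2ac19 occur in H2ac18, and the alignment of the pair is identical over 528 of 528 columns. For the chromosome 13 copies, 93.1% of the stretches of H2ac24 occur in H2ac23 and 93.5% of those of H2ac23 in H2ac24. H2ac22 shares 75.6% of its stretches with another of the 6 genes. H2ac8 is the most distinct, with 36.0% shared with another of the 6 and 43.2% with any other annotated gene. Values of single H2A genes are therefore uncertain, above all within these 2 pairs, and the sums of each pair are given beside them.

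**Figure D1:**
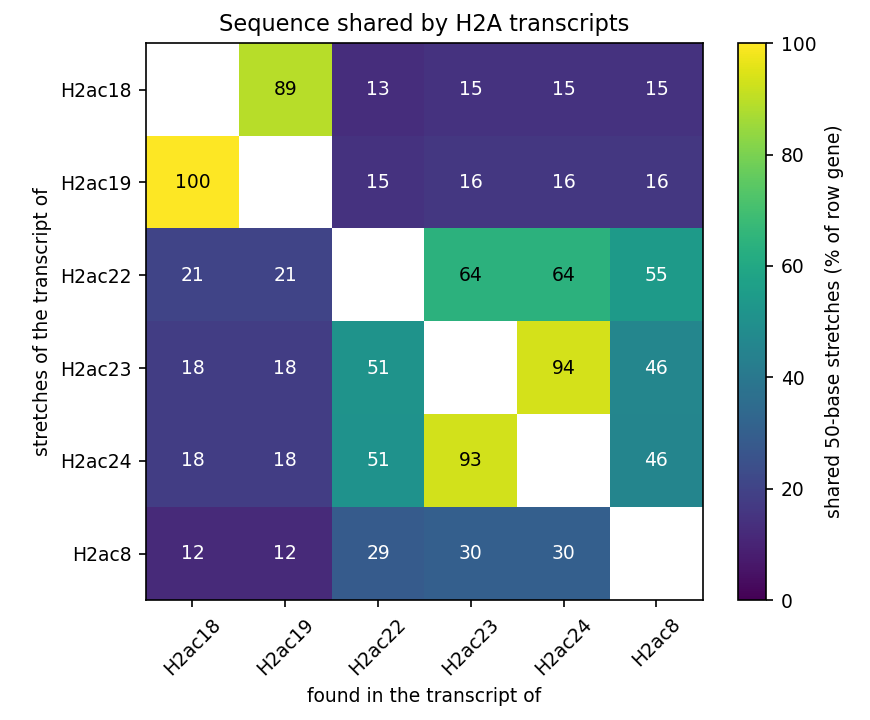
Percentage of the 50-base stretches of each annotated H2A transcript (rows) that also occur in the transcript of another H2A gene (columns), from 0 to 100. H2ac18 with H2ac19 and H2ac23 with H2ac24 stand out at 89.2% to 100%, and H2ac8 shares at most 30.1% of its own stretches with any 1 of the others.

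Genes entered the authors' deposited table through their change between these same libraries (absolute log2 fold change 1.00 or more), so no call here is independent evidence of a change. Of 2056 genes tested, limma called 100% at an adjusted p under 0.05 in one direction or the other, and the groups overlapped in 2 of 2065 genes. The summed values of all listed genes lay between 161067 and 183535 per library, and sequencing depth is unknown. Targets of hypoxia-inducible factor (HIF), which low oxygen normally raises, went against the labels: of 13 listed targets of 20 on the list, 12 were lower in the libraries labelled hypoxia, such as the glucose transporter Slc2a1 at -3.13, and Pfkfb4 was higher at 1.46, though not called with factors from trimmed means (TMM). Directions below are therefore given by label. Whether the labels were exchanged was not tested, and an exchange would turn the sign of every difference while leaving its size. TMM factors were computed from the listed genes alone, most of them higher, and moved the median difference from 1.15 to 0.03. A value with TMM factors is therefore relative to this table, and one near 0 does not show that a gene was unchanged. Of 15 osteocyte and osteoblast markers 7 were listed, 6 called higher, such as podoplanin (Pdpn), and 1 lower, where 79.4% of all tested genes were called higher, and with TMM factors 1 of the 6 lay below 0. The osteocyte markers Dmp1, Sost, Phex, Fgf23 and Mepe are outside the table. Of 18 markers of other cell types, Cebpa was higher and Sox9, Acta1 and Cd68 were lower, and their summed value was 28.0 to 33.9 in the libraries labelled hypoxia and 109.8 to 123.8 in those labelled normoxia. Their part in the histone results was not tested.

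All 6 H2A genes were lower in the libraries labelled hypoxia than in those labelled normoxia. On the deposited log2(value + 1) scale their differences, hypoxia label minus normoxia label, lay between -1.81 and -1.55 with a median of -1.61, where the median over all 2056 tested genes was 1.15 and that of the 423 lower genes was -1.52. Limma called 6 of 6 lower, beside 20.6% of all tested genes called lower. In each of the 6 genes every library labelled hypoxia lay below every library labelled normoxia, which held for 20.6% of all listed genes. In bulk RNA, fewer cells expressing a gene and less RNA per cell cannot be told apart.

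**Figure D2:**
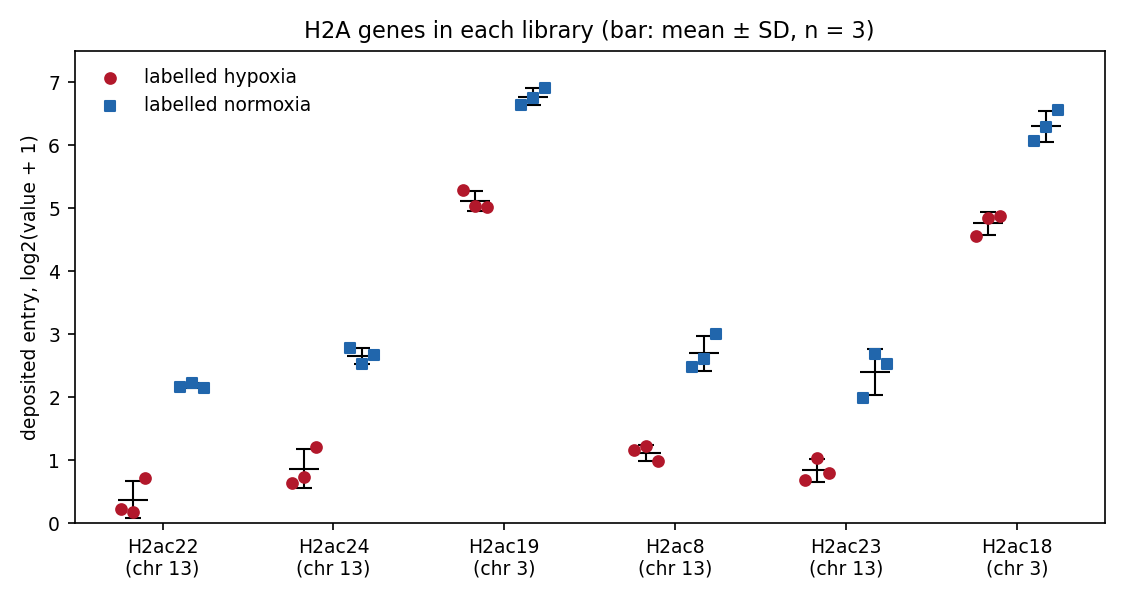
Deposited entries, log2(value + 1), of the 6 H2A genes in the 3 libraries labelled hypoxia (red circles) and the 3 labelled normoxia (blue squares), with mean and SD. The groups are apart in every gene, and the 2 chromosome 3 genes lie above the 4 chromosome 13 genes in both groups.

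The chromosome 3 copies had the highest values of the 6 listed genes. Values below are linear, obtained by undoing the logarithm, in the authors' unit, which has no name. H2ac19 (ENSMUSG00000063954) had values of 38.1, 31.8 and 31.4 in hypoxia replicates 1, 2 and 4, against 99.1, 106 and 119 in normoxia replicates 2, 3 and 4. The highest library labelled hypoxia thus stayed far below the lowest labelled normoxia. The means were 33.8 ± 3.75 under the hypoxia label and 108 ± 10.3 under the normoxia label (SD, n = 3 each), which is 3.21-fold lower under the hypoxia label. The log2 difference was -1.65 ± 0.10 (SE; limma, Benjamini-Hochberg adjusted p = 2.61e-07).

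H2ac18 (ENSMUSG00000064220), its near-identical neighbour, had values of 22.5, 27.7 and 28.4 in hypoxia replicates 1, 2 and 4, against 66.0, 77.2 and 93.2 in normoxia replicates 2, 3 and 4. It was 3.01-fold lower by the linear means under the hypoxia label, with a log2 difference of -1.55 ± 0.14 (SE; limma, Benjamini-Hochberg adjusted p = 2.61e-06). In hypoxia replicate 1 the copies diverged, since H2ac19 was at its highest there among the libraries labelled hypoxia and H2ac18 at its lowest. Their sum hardly differed among the libraries labelled hypoxia. It was 60.6, 59.5 and 59.8 in hypoxia replicates 1, 2 and 4, against 165, 184 and 213 in normoxia replicates 2, 3 and 4. With the pair counted as 1 gene, a choice made after the data were seen, the log2 difference was -1.62 ± 0.09 (SE; limma). The share of the pair's sum given to H2ac19 ranged from 52.6% to 62.8% under the hypoxia label and from 56.2% to 60.0% under the normoxia label.

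The chromosome 13 genes were listed at low values, near or below 1 under the hypoxia label. H2ac22 (ENSMUSG00000069309) had values of 0.167, 0.133 and 0.645 in hypoxia replicates 1, 2 and 4, against 3.48, 3.68 and 3.43 in normoxia replicates 2, 3 and 4. Its level was even across the normoxia label, and in the hypoxia label replicate 4 stood above the other libraries. By the linear means it was 11.2-fold lower, the largest ratio of the 6 genes, and without hypoxia replicate 4 it was 23.5-fold lower. Its log2 difference was -1.81 ± 0.14 (SE; limma, Benjamini-Hochberg adjusted p = 1.04e-06).

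H2ac24 (ENSMUSG00000094777) had values of 0.556, 0.663 and 1.32 in hypoxia replicates 1, 2 and 4, against 5.87, 4.74 and 5.34 in normoxia replicates 2, 3 and 4. Hypoxia replicate 4 was again the highest of its group, as for H2ac22. The gene was 6.28-fold lower under the hypoxia label, with a log2 difference of -1.79 ± 0.16 (SE; limma, Benjamini-Hochberg adjusted p = 1.98e-06). Its copy H2ac23 (ENSMUSG00000094248) had values of 0.610, 1.05 and 0.731 in hypoxia replicates 1, 2 and 4, against 2.95, 5.42 and 4.75 in normoxia replicates 2, 3 and 4. H2ac23 had the widest spread of the 6 genes under the normoxia label on the log2 scale (SD 0.37), where replicate 2 was low, and did not share the high value of hypoxia replicate 4. It was 5.49-fold lower, with a log2 difference of -1.56 ± 0.18 (SE; limma, Benjamini-Hochberg adjusted p = 1.92e-05). The sum of H2ac23 and H2ac24 was 1.64 ± 0.448 under the hypoxia label and 9.69 ± 0.756 under the normoxia label (SD, n = 3 each), and counted as 1 gene the pair had a log2 difference of -2.03 ± 0.14 (SE; limma).

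H2ac8 (ENSMUSG00000069272) is the gene with AATAAA near the end of its annotated transcript. Its values were 1.23, 1.34 and 0.973 in hypoxia replicates 1, 2 and 4. In normoxia replicates 2, 3 and 4 they were 4.56, 5.07 and 7.05. Its libraries labelled hypoxia lay close together, and normoxia replicate 4 was the highest library. The gene was 4.72-fold lower under the hypoxia label, with a log2 difference of -1.58 ± 0.15 (SE; limma, Benjamini-Hochberg adjusted p = 2.95e-06). Normoxia replicate 4 was also the highest library for H2ac18 and H2ac19.

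On the linear scale the chromosome 13 genes were 4.72-fold to 11.2-fold lower (H2ac22 at 23.5-fold without hypoxia replicate 4) and the chromosome 3 genes 3.01-fold and 3.21-fold lower, although all 6 look alike on the log2(value + 1) scale. Adding 1 compresses ratios of genes with values near 1. With 0.1 added in place of 1, the log2 difference was -3.34 for H2ac22, -2.60 for H2ac24, -2.30 for H2ac23 and -2.13 for H2ac8, but -1.68 for H2ac19 and -1.58 for H2ac18. With 5 added, the order turned, from -0.82 to -0.68 for the chromosome 13 genes and at -1.55 and -1.42 for H2ac19 and H2ac18. Whether the genomic groups respond differently was not tested. The 4 chromosome 13 genes passed the filter (1 or more in 3 or more libraries) through the normoxia label, since 0 (H2ac22), 1 (H2ac24 and H2ac23) and 2 (H2ac8) of the 3 libraries labelled hypoxia reached 1.

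Summed over the 6 genes, the H2A value was 63.2, 62.7 and 63.5 in hypoxia replicates 1, 2 and 4, against 182, 203 and 233 in normoxia replicates 2, 3 and 4. The libraries labelled hypoxia were nearly equal and those labelled normoxia more spread. The ratio of the group means was 0.307, or 3.26-fold lower under the hypoxia label, and it was 0.184 with quantile normalization and 0.126 with TMM factors. H2ac18 and H2ac19 made up 95.0% ± 0.873 of this sum of 6 listed genes under the hypoxia label and 90.9% ± 0.274 under the normoxia label (SD, n = 3 each), and their share of all H2A RNA is unknown, since the other 11 genes were not analysed here. No source used here says whether the unit is scaled for transcript length. Divided by annotated transcript length, which runs from 393 to 704 bases, H2ac19 and H2ac18 still had the highest mean values, at 64.0 and 44.7 per 1000 bases under the hypoxia label and 205 and 134 under the normoxia label. The other 4 had 0.802 to 1.76 under the hypoxia label and 7.90 to 11.0 under the normoxia label on that scale, and neighbours in the order of these 4 overlapped in their library values in both groups.

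Of the other replication-dependent core histones, named by H2bc, H3c or H4c and digits, every listed H3 and H4 gene was called lower. Those of H2B, the dimer partner of H2A, went both ways. The H3 genes H3f3a and H3f3c were also in the table but fall outside these symbols. All 4 listed H3c genes of 12 in RefSeq were called lower by limma, with H3c15 at -2.22 ± 0.12 and H3c13 at -1.85 ± 0.12 (SE). All 5 listed H4 genes of 12 were called lower too, with H4c1 at -1.79 ± 0.21 and H4c9 at -1.71 ± 0.13 (SE). The median differences were -1.56 for H3 and -1.44 for H4, near that of H2A. Of the 5 listed H2B genes of 16, limma called 3 lower, with H2bc12 at -1.51 ± 0.16 and H2bc3 at -1.33 ± 0.16 (SE), and 2 higher, H2bc21 at 1.49 ± 0.15 and H2bc18 at 1.34 ± 0.19 (SE). With TMM factors H2bc18 was no longer called (difference 0.42; limma, adjusted p = 0.151), while H2bc21 was (0.57). The adjusted p of H2bc18 by limma was 8.94e-05 on the deposited values and 0.0254 with quantile normalization. H2bc18 and H2bc21 lie on chromosome 3, as do H2ac18 and H2ac19. No linker H1 gene with a symbol of H1f and digits was listed.

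**Figure D3:**
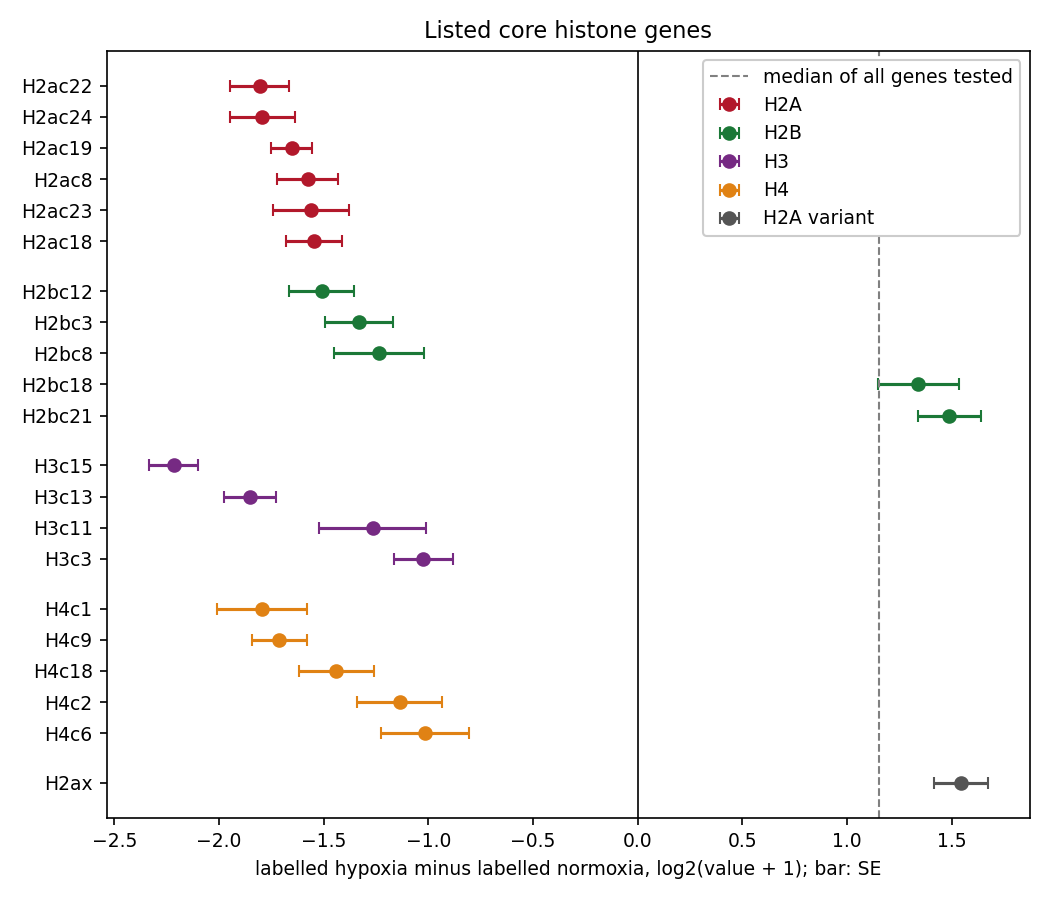
Difference in log2(value + 1), hypoxia label minus normoxia label, with SE. Shown are the 6 H2A genes, the listed replication-dependent H2B, H3 and H4 genes and the variant gene H2ax. The replication-dependent H2A, H3 and H4 genes all lie left of 0, at -1.02 or lower. H2bc18, H2bc21 and H2ax lie right of the dashed median of all tested genes (1.15).

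Histone genes directly next to the H2A genes were lower where they were listed, as were all listed H3c and H4c genes wherever they lie. Neither neighbour of H2ac23 was listed. In the RefSeq gene order H2ac18 and H2ac19 neighbour each other, and H2ac19 also neighbours H3c15. H2ac8 neighbours H2bc8 (-1.23 ± 0.22, SE), H2ac22 neighbours H3c11 (-1.27 ± 0.26, SE), and H2ac24 neighbours H4c18 (-1.44 ± 0.18, SE), all called lower by limma. The H2A pseudogene H2ac5-ps on chromosome 13, which falls outside the rule and was chosen after its values were seen, was at -1.06 ± 0.20 (SE; limma, Benjamini-Hochberg adjusted p = 0.000680). Another pseudogene of chromosome 13 with an H2A name, H2af-ps2, chosen in the same way, was at -1.58 ± 0.09 (SE; limma, Benjamini-Hochberg adjusted p = 2.11e-07).

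The H2A variant gene H2ax, whose protein is phosphorylated at DNA breaks and whose gene lies on chromosome 9, was the only one of 9 variant genes on the list to be in the table, and it was higher. Its entry was 6.95 ± 0.07 under the hypoxia label and 5.41 ± 0.28 under the normoxia label (SD, n = 3 each), a difference of 1.54 ± 0.13 (SE; limma, Benjamini-Hochberg adjusted p = 1.84e-06). With quantile normalization the difference was 0.86 and with TMM factors 0.29, both still called by limma. In the annotation H2ax shares 50-base stretches with each of the 6 H2A genes.

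Genes of DNA replication and S phase, the phase in which histone genes are mainly transcribed, were called higher where listed, which was so for 4 of 38, in a table where 79.4% of tested genes were called higher. Thymidine kinase Tk1 was at 1.96 ± 0.09, thymidylate synthase Tyms at 1.28 ± 0.07 and the replication factor Gins3 at 1.08 ± 0.12 (SE), each called higher by limma. With TMM factors Tyms and Gins3 lay near 0 (0.02 and 0.01) and were not called, while Tk1 was still called (0.71). Of the 4 listed genes, 1 was called and 1 lay below 0 under that scaling. Since that scaling moved the median of the table from 1.15 to 0.03, these values do not show that Tyms and Gins3 were unchanged. The summed value of the 4 listed genes was 284 to 299 in the libraries labelled hypoxia and 87.8 to 104 in those labelled normoxia. None of 16 genes of histone mRNA processing and its control, among them Slbp and the histone gene activator Npat, was in the table. Of 21 H2A-H2B chaperones and H2A modifying enzymes, the deubiquitinases Usp16 (1.33 ± 0.11, SE) and Usp3 (-1.05 ± 0.12, SE), which both act on ubiquitinated H2A, were listed, in opposite directions, and Usp16 lay near 0 with TMM factors (0.08).

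Histone genes and predicted genes (Gm or Rik symbols, or an Ensembl identifier alone) were left out of the ranking by pattern. Among the rest, the genes most like the mean of the 6 H2A genes over the 6 libraries were Sdcbp2, Tatdn2, Ftl1-ps1, Naa16 and Pdgfra. Likeness was the root mean square difference between entries centred on each gene's mean, and it was 0.082 for Sdcbp2, 0.088 for Tatdn2, 0.093 for Ftl1-ps1, 0.094 for Naa16 and 0.096 for Pdgfra, the receptor of platelet-derived growth factor. The H2A genes themselves stood at 0.10 (H2ac18) to 0.20 (H2ac24) from their mean. Of the other histone genes, H4c9 (0.11) was nearest. H3f3a (1.38) and H3f3c (1.39) stood far from that mean, as did H2bc18 (1.52), H2bc21 (1.59) and H2ax (1.62). These values describe 6 libraries that share the labels by which all listed genes were selected.

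The H2A differences kept their direction and their call in all 96 recomputations over the alternatives, of which the closing section gives the values. Most of the table stayed called as well under most alternatives, since genes were listed for their change. The median of all tested genes, 1.15 as deposited, was 0.03 with TMM factors and 0.36 after quantile normalization. The 6 H2A genes had differences between -2.90 and -2.34 with TMM factors and between -2.39 and -2.14 with quantile normalization. Both scalings were computed from genes listed for their change, so these values are relative to this table.

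**Figure D4:**
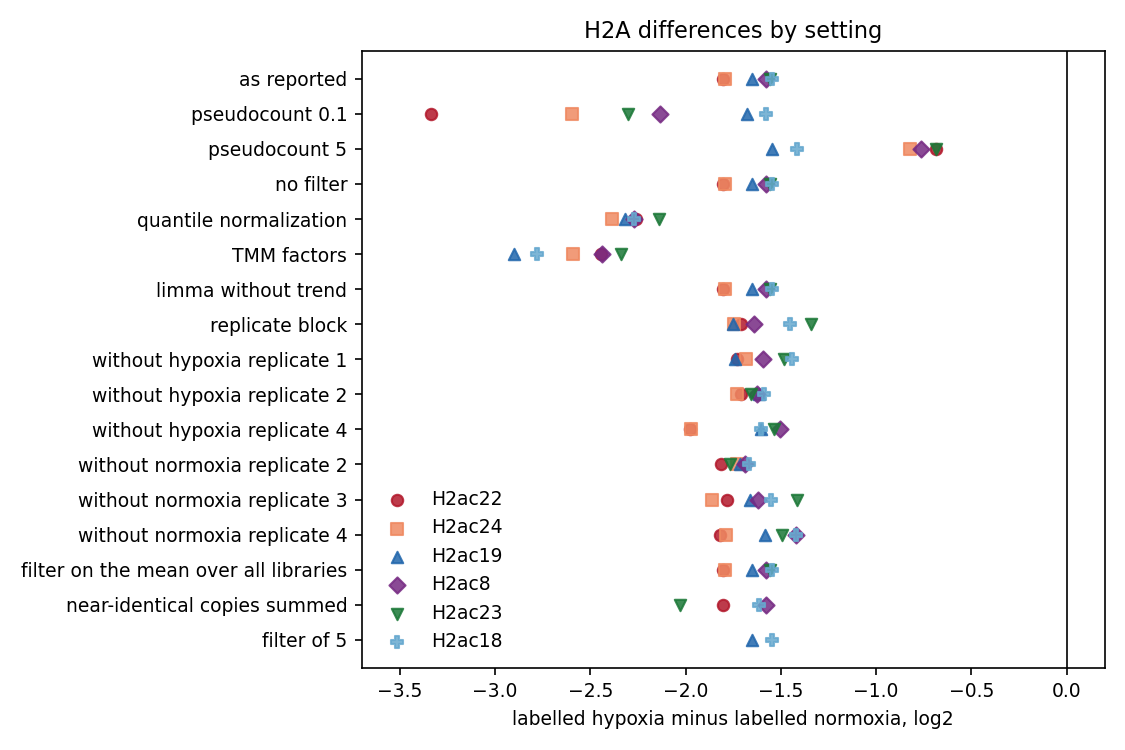
Log2 difference, hypoxia label minus normoxia label, of each H2A gene as reported and under each alternative that changes the values. All points lie left of 0, the chromosome 13 genes spread from -3.34 to -0.68 with the added constant, and with a filter of 5 only H2ac18 and H2ac19 were tested. With near-identical copies summed, the points of H2ac18 and H2ac23 stand for the pairs H2ac18 with H2ac19 and H2ac23 with H2ac24.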

How the data were processed

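The authors deposited log2 entries per library for 2065 genes. They were read as log2(value + 1), a pseudocount of 1, because 100% of entries, once turned back, had 3 decimals (tolerance 1e-06). The authors also deposited a log2 fold change, equal to the difference of group means, and an adjusted p-value of at most 0.0926, from a test that no source used here names. FastQC 0.12.0, DRAGEN and the genome build GRCm39 appear in the submitters' processing notes. Depth is unknown.

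The entries are not counts, so log values were tested with limma 3.58.1 (R 4.3.3), with a variance trend and robust estimation, on the 2056 genes that reached 1 in 3 or more libraries, with Benjamini-Hochberg adjustment over all of them, two-sided, threshold 0.05. The test was checked on simulated data in which most genes were unchanged, whereas every gene of this table was listed for its change. Alternatives were pseudocounts of 0.1 and 5, no filter, a filter of 5, quantile normalization, TMM factors (trimmed means of log ratios, times the summed tested values of a library), no trend, a replicate block, each library left out, a threshold of 0.01, and, chosen after seeing the data, a filter on the mean, summed copies and linear folds with each library left out. Transcripts came from GENCODE vM21 and promoters from RefSeq GRCm38.p6, matched by Ensembl identifier and by symbol for 6 of 6 genes. Genes named were all 6 members, up to 2 listed members per direction of each histone list and up to 4 of each other list. Also named were the 5 genes most alike, with histone and predicted genes left out. Genomic neighbours and the pseudogenes were named beside this rule. Members and lists were chosen with earlier results of these data known. Another 21 columns were not used. Values of 1 gene of the replication list are not reported here.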

Additional observations from a re-analysis of the deposited data

How the results depend on the processing

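All 96 values of the 6 H2A genes under alternatives kept their direction and stayed under the threshold by limma (largest Benjamini-Hochberg adjusted p = 0.000337, in H2ac23). With each library left out in turn, the log2 difference ranged from -1.98 to -1.71 for H2ac22, -1.97 to -1.68 for H2ac24, -1.74 to -1.58 for H2ac19, -1.69 to -1.42 for H2ac8, -1.77 to -1.42 for H2ac23 and -1.67 to -1.42 for H2ac18. The number of H2A genes called lower was 6 except with a filter of 5, where 2 were tested and both were called. The ratio of summed H2A values, 0.307 as deposited, was 0.184 with quantile normalization and 0.126 with TMM factors. Over the table, 1633 genes were called higher and 423 lower, and with TMM factors 571 were higher and 475 lower. Replicate numbers 2 and 4 occur in both groups, and nothing in the labels says that they pair libraries. The deviations of same-numbered libraries from their group means correlated across tested genes with r = 0.082 (number 2) and -0.072 (number 4). With a replicate block, which leaves 1 residual degree of freedom, the H2A genes lay between -1.75 and -1.34, 6 were called lower, and 1627 genes were called higher and 418 lower in the table. Unknown depth limits the chromosome 13 genes most, since their values lie near or below 1 under the hypoxia label.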
